A study of Mus musculus with 10 samples.

Results

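The 9 solute carrier genes described here, which move organic anions and cations across the kidney tubule, were followed over 8 groups of bulk mouse kidney RNA and 2 single-cell libraries. They were chosen by gene symbol: Slc22a6, Slc22a8, Slc22a7, Slc22a12, Slc22a13, Slc22a19, Slc22a30, Slc22a2 and Slc47a1. These 9 genes were taken from 33644 genes with summed transcript counts, and 17591 genes, all 9 among them, passed the filter on low counts. The uninjured single-cell table listed all 9 by symbol and the injured one listed 8, without Slc22a19.

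Secretion of drugs, toxins and metabolic waste by the proximal tubule works in a pair of steps. A basolateral carrier takes the solute up from blood, and an apical carrier passes it into the urine. On the anion side, Slc22a6 (OAT1) and Slc22a8 (OAT3) exchange intracellular dicarboxylates for organic anions, while Slc22a12 (URAT1) and Slc22a13 (OAT10) sit on the apical face and handle urate. On the cation side, Slc22a2 (OCT2) takes up cations and Slc47a1 (MATE1) exchanges them for protons at the apical face. Slc22a7 (OAT2), Slc22a19 (OAT5) and Slc22a30 belong to the organic anion branch of the family.

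All mice were labelled 8 weeks of age. In the ischaemia arms, the artery of 1 kidney was tied for 15 minutes and both kidneys were taken 2 weeks later, so each arm has an injured and a contralateral group. The wild-type tamoxifen arm (WT TAM) used C57/BL6 mice given tamoxifen. Mice carrying Pax8creERT2;Ihhfl/fl were given tamoxifen in the TG TAM arm and, per the labels, none in the TG VEH arm. Pax8 drives this inducible Cre in tubule epithelium, so the floxed Ihh of other cells is not targeted. TG TAM is the only arm in which the labels imply loss of Ihh, the Hedgehog ligand, and WT TAM and TG VEH are called the Ihh-intact arms below. WT TAM lacks the floxed allele and the Cre, and TG VEH lacks tamoxifen. Uninjured C57/BL6 kidneys and C57/BL6 kidneys left in place after removal of the other one (nephrectomy) completed the bulk set. Both single-cell libraries came from C57/BL6 kidneys, 1 post ischaemia and 1 uninjured, digested on ice and sorted for live cells by exclusion of DAPI.

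The bulk table had 4 numbered columns per group, taken as 4 libraries. The labels do not say that they are separate animals, so p-values cover the spread between these libraries only. Uninjured libraries 1 and 4 and nephrectomy library 3 were left out by the rule that defined the gene set, because heart muscle markers held 5.19% to 5.34% of their counts, against at most 0.0529% in the 29 libraries used. Slc34a1, the phosphate carrier that marks the proximal tubule, stood at 0.92 to 3.7 counts per 1000000 counts of the library (CPM) in those 3 and at 627 to 5950 CPM in the 29. Totals of the 29 libraries ran from 593231 to 37975751 counts, with the lowest in 1 of the 2 uninjured libraries. Ihh, the targeted gene, stood at 4.58 to 6.09 CPM in injured TG TAM kidneys and at 5.99 to 15.4 CPM in the injured kidneys of the other arms. In contralateral TG TAM kidneys Ihh stood at 4.34, 8.69, 3.44 and 17.2 CPM, against 8.05 to 14.3 CPM in the contralateral kidneys of the Ihh-intact arms. Contralateral TG TAM library 2 lies inside that range and library 4 above it, so neither had the lower Ihh RNA that the label implies. Ihh stood at 5.07 and 7.42 CPM in the uninjured libraries and at 13.2, 19 and 11.1 CPM in the nephrectomy ones. Its RNA level thus did not fully separate the labels.

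Promoter sequences, 250 bases before to 50 bases after the annotated start, were found for 7 of the 9 genes in RefSeq (GRCm38.p6). Of these, 4 are printed: Slc22a6 and Slc22a8 are neighbours on chromosome 19, and Slc22a13 and Slc22a19 have the injury response that differed most between arms. Capitals mark the letters CAAAG, or CTTTG where the match is on the other strand, the core of the site bound by the tubule transcription factor HNF4. They begin 8 bases before the start of Slc22a6, 219 and 71 bases before that of Slc22a8, 149 and 11 bases before that of Slc22a13, and 192 and 58 bases before that of Slc22a19. These letters are common, in 53.9% of 32851 promoters of the same length and in all 7 found here.
Slc22a6, chr19:8617746-8618045, plus strand: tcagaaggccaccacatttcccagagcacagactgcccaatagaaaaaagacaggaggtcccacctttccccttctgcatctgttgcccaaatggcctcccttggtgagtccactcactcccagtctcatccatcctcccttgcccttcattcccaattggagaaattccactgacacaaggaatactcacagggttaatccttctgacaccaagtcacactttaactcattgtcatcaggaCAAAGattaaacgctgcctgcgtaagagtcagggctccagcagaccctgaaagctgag
Slc22a8, chr19:8592932-8593231, plus strand: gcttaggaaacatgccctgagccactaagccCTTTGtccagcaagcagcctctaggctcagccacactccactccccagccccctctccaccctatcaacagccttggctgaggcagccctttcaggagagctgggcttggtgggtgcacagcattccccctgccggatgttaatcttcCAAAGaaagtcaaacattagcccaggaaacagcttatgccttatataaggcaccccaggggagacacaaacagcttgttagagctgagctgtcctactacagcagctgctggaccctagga
Slc22a13, chr9:119209056-119209355, minus strand: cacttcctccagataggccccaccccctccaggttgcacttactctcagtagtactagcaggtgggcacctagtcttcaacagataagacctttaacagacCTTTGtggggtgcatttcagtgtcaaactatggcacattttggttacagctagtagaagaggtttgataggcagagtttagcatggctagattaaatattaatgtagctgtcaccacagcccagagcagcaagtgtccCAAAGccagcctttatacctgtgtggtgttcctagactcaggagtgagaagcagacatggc
Slc22a19, chr19:7711261-7711560, minus strand: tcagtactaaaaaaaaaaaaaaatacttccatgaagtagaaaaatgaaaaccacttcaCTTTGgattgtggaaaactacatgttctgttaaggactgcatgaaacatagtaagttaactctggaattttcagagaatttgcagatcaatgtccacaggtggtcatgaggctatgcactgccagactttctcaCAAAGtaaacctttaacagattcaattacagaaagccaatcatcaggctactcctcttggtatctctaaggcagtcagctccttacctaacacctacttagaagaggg

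The longer HNF4 letters CAAAGTCCA, which contain CAAAG and were also searched on both strands, were in 0.475% of all promoters and in 0 of the 7. GC content of the printed windows was 50% for Slc22a6, 55% for Slc22a8, 47.7% for Slc22a13 and 37.7% for Slc22a19, against a median of 52.7% over all promoters. Slc22a30, at 27.7%, was the lowest of the 7.

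The genes sit on 4 chromosomes of GRCm38. Slc22a12 (chr19:6535845-6543032), Slc22a19 (chr19:7673061-7711310), Slc22a30 (chr19:8335371-8405111), Slc22a8 (chr19:8591254-8611835) and Slc22a6 (chr19:8618039-8628299) lie within 1 stretch of chromosome 19. Slc22a2 (chr17:12584132-12628488) and Slc22a7 (chr17:46432183-46438457) are on chromosome 17, Slc22a13 (chr9:119192974-119209098) on chromosome 9 and Slc47a1 (chr11:61343401-61378345) on chromosome 11. Slc22a6, Slc22a7, Slc22a13 and Slc22a2 had 1 annotated transcript each. Slc22a19 drew 91.8% of its counts from its coding transcript and the rest from 2 retained-intron models. Slc22a30 was split between transcripts holding 48.9%, 44.1% and 6.93% of its counts, and Slc47a1 drew 10.8% from a model annotated for nonsense-mediated decay. Slc22a19 and Slc22a30 have close copies among Slc22a26 to Slc22a29, so reads could be assigned between them, and their values are the less certain ones.

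Slc22a12 was the most abundant of the 9 in kidneys without ischaemia. Levels between genes were compared as transcripts per 1000000 transcripts (TPM), which corrects for length. In the 12 contralateral libraries, Slc22a12 stood at 1441 ± 176 TPM (SD, n = 12), Slc47a1 at 672 ± 99.4 and Slc22a6 at 580 ± 33.4. Slc22a30 followed at 405 ± 77.3 TPM, Slc22a2 at 269 ± 17.8 and Slc22a8 at 235 ± 54.9. The least abundant were Slc22a7 at 104 ± 22.3 TPM, Slc22a13 at 82.4 ± 9.82 and Slc22a19 at 57.8 ± 9.38. Of the neighbours in this order, only Slc22a12 and Slc47a1, and Slc22a8 and Slc22a7, had ranges that did not overlap over the 12 libraries. Slc47a1 was above Slc22a6 in 10 of the 12, and Slc22a2 above Slc22a8 in 9 of the 12. In the 12 injured libraries the order of means was the same, from 618 TPM for Slc22a12 to 35.8 TPM for Slc22a19.

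**Figure D1:**
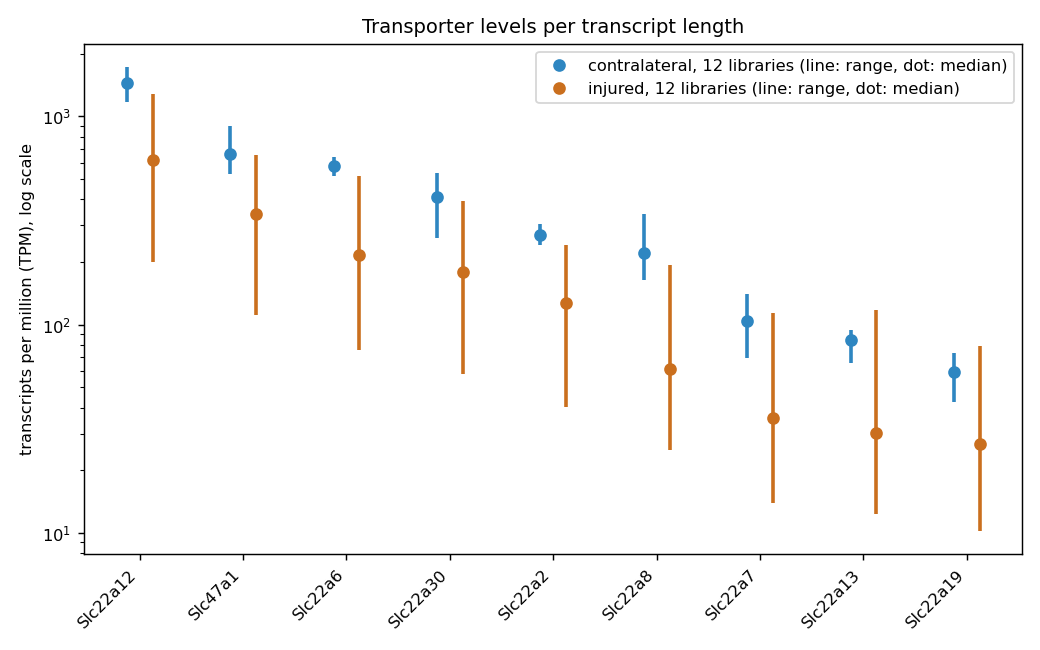
Level of each transporter in TPM, which corrects for transcript length, on a log axis, with genes ordered by their contralateral mean. Dots are medians and lines are ranges over 12 contralateral and 12 injured libraries. Contralateral means run from 1441 TPM for Slc22a12 to 57.8 TPM for Slc22a19, and the injured ranges are the wider ones for every gene.

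All 9 transporters were lower in injured than in contralateral kidneys. In edgeR's quasi-likelihood test over the 3 arms (12 against 12 libraries, Benjamini-Hochberg adjustment over 17591 genes), 9 of 9 fell, with a median log2 fold change of -1.61. Over all genes tested, 34.7% fell and 73.7% changed in either direction, and the median was 0.053. Fewer proximal tubule cells and less transporter RNA per cell cannot be told apart in bulk RNA. Genes of the proximal tubule moved with the transporters: all 25 of a proximal tubule reference list (among them Lrp2, Slc34a1 and Pck1; none of the 9 is in it) fell, with a median of -1.57, and their share of counts was 0.745% to 4.12% in injured and 3.86% to 4.95% in contralateral libraries. Markers of several other cell types rose, next to 39% of all genes: 8 of 8 macrophage and dendritic cell genes (median 2.25), 6 of 7 T and NK cell genes (3.02), 6 of 6 B and plasma cell genes (3.59), 7 of 7 fibroblast and mural cell genes (1.70), and 4 of 4 podocyte genes (0.89). Of 4 neutrophil genes 1 rose (0.94). Injured tubule genes, listed for a state of tubule cells, rose in 6 of 6 cases (3.17), and which cells held this RNA was not tested in bulk. Markers of other tubule segments and of endothelium fell in part: 4 of 5 distal convoluted tubule genes (median -1.51), 3 of 5 thick ascending limb genes (-0.34, with 1 higher), 3 of 6 principal cell genes (-0.35) and 3 of 6 endothelial genes (-0.30). The part of these cells in the fall was not tested in bulk RNA.

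Slc22a6, the basolateral anion carrier OAT1, ran from 931 to 1240 CPM in the 12 contralateral libraries, with a median of 1021 CPM. In injured kidneys it stood at 178, 139, 363 and 430 CPM in WT TAM, at 479, 305, 589 and 167 CPM in TG VEH, and at 362, 658, 873 and 326 CPM in TG TAM. No injured library reached the lowest contralateral one, and the log2 fold change was -1.73 (SE 0.22, edgeR adjusted p = 1.879e-07). Spread grew with injury, from a highest-to-lowest ratio of 1.33 over the contralateral libraries to 6.28 over the injured ones.

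Slc22a8, the other basolateral anion carrier (OAT3), had the largest fall of the 9, -2.12 (SE 0.23, edgeR adjusted p = 2.254e-08). Contralateral libraries ran from 281 to 505 CPM with a median of 318 CPM. Injured libraries stood at 42.5, 39.6, 160 and 79.2 CPM in WT TAM, at 90.7, 77.8, 110 and 37.5 CPM in TG VEH, and at 145, 173, 285 and 91.2 CPM in TG TAM. A single injured library, TG TAM library 3, lay inside the contralateral range.

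Of the anion carriers of the apical face, Slc22a12 (URAT1) went from 1390 ± 216 CPM (SD, n = 12) in contralateral to 561 ± 298 CPM (SD, n = 12) in injured kidneys, a log2 fold change of -1.74 (SE 0.22, edgeR adjusted p = 1.39e-07). Slc22a13 (OAT10) went from 72.9 ± 6.83 to 37.7 ± 28.1 CPM (SD, n = 12 each), or -1.59 (SE 0.16, edgeR adjusted p = 4.694e-09). Among the other anion carriers, Slc22a7 fell by 1.83 on the log2 scale, Slc22a30 by 1.61 and Slc22a19 by 1.36. The cation pair fell too: Slc22a2 (OCT2) by 1.61, from 262 ± 25.9 to 118 ± 61.7 CPM (SD, n = 12 each) with no overlap, and Slc47a1 (MATE1) by 1.52, from 739 ± 79.3 to 343 ± 166 CPM (SD, n = 12 each). Fitted falls of the uptake and exit carriers of cations had SEs of 0.19 each, and the difference between them was not tested.

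**Figure D2:**
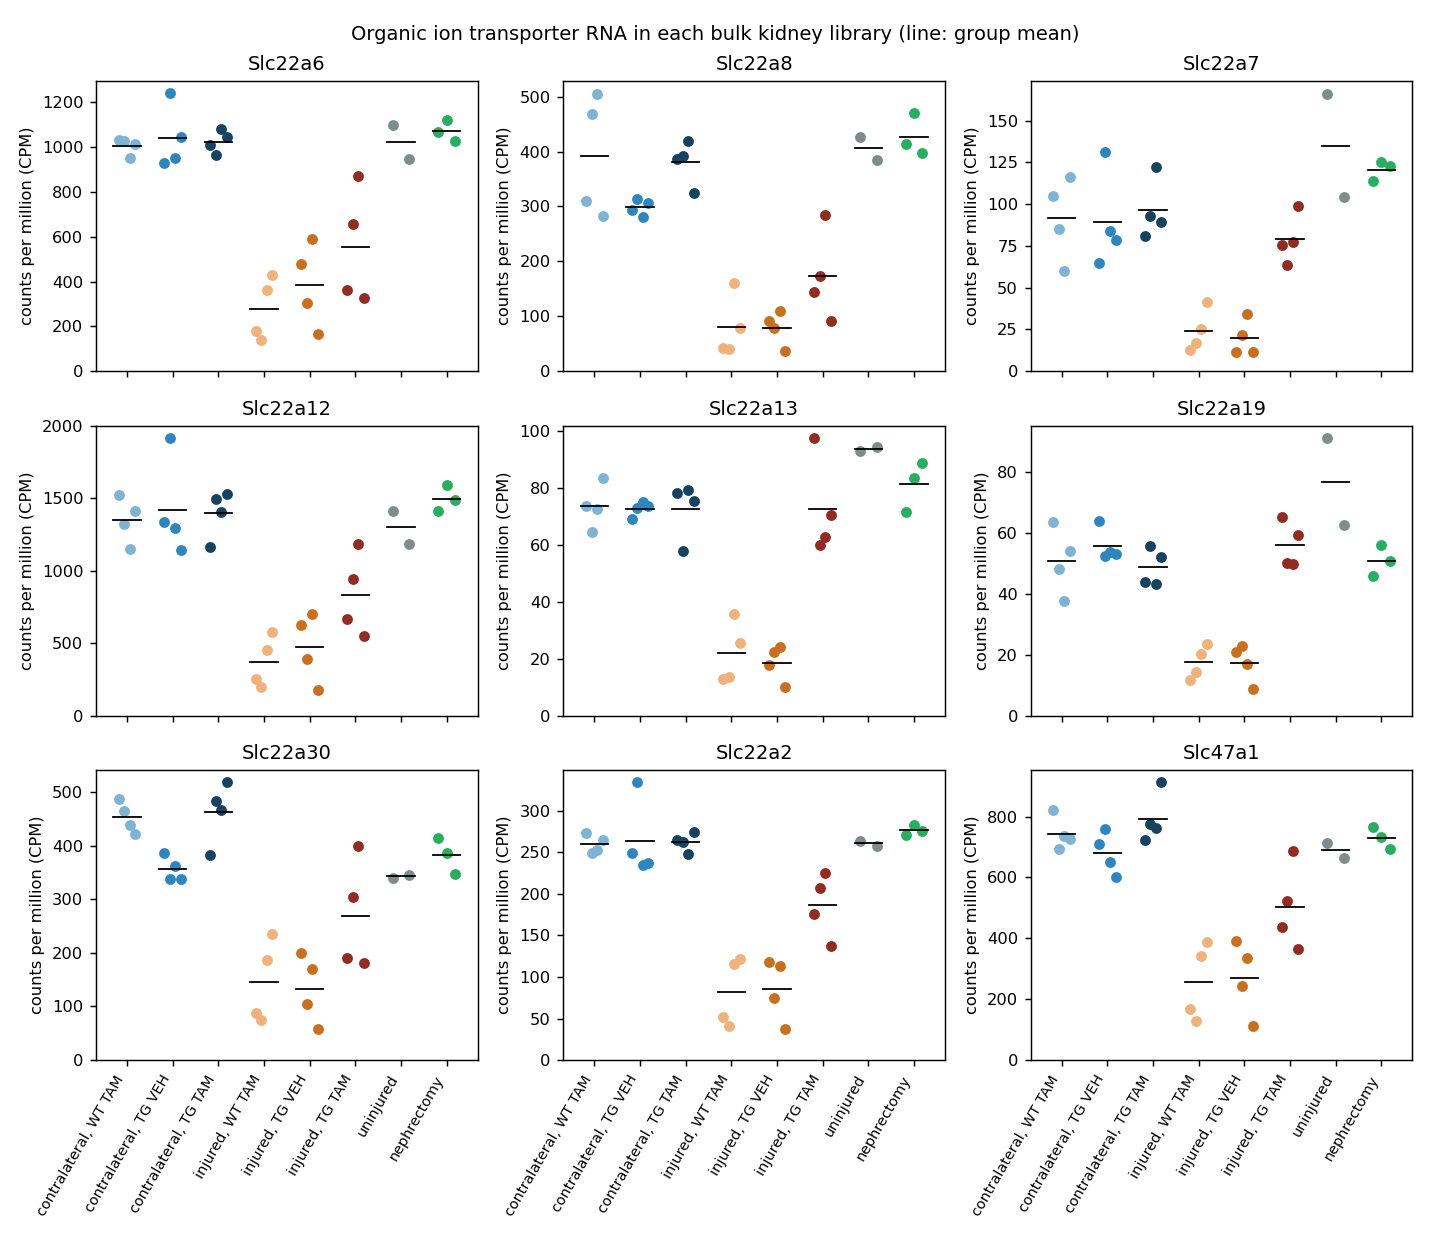
Level in CPM of the 9 transporters in each of the 29 bulk libraries, 1 panel per gene, with a line at each group mean. Contralateral, uninjured and nephrectomy libraries sit high, injured WT TAM and TG VEH libraries sit low for every gene, and injured TG TAM libraries of Slc22a13 (59.7 to 97.4 CPM) and Slc22a19 (49.9 to 65.3 CPM) sit at the contralateral level.

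Within the WT TAM arm, 9 of 9 transporters fell (28.7% of all genes did), from -1.96 for Slc22a19 and Slc47a1 to -2.71 for Slc22a8. In the TG VEH arm 9 of 9 fell as well (31% of all genes), from -1.78 for Slc47a1 to -2.66 for Slc22a7. Injured and contralateral libraries did not overlap for any of the 9 in either arm (4 against 4).

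In the TG TAM arm only Slc22a6, Slc22a8 and Slc22a30 passed the test, 3 of 9 against 14.6% of all genes that fell there. Of the 25 proximal reference genes, 12 fell in this arm, with a median of -0.87 against -0.82 for the 9 transporters. Slc22a6 fell by 1.04 (edgeR adjusted p = 0.03615), Slc22a8 by 1.29 (edgeR adjusted p = 0.01531) and Slc22a30 by 0.94 (edgeR adjusted p = 0.04219). Slc22a12 had a value of -0.90 (edgeR adjusted p = 0.06055) and Slc47a1 one of -0.82 (edgeR adjusted p = 0.05691). For Slc22a2 the value was -0.66, for Slc22a7 -0.49, for Slc22a13 -0.20 and for Slc22a19 0.01, with edgeR adjusted p from 0.1138 to 0.9706. This count of 3 was 0 without injured TG TAM library 4, 5 without injured TG TAM library 3, and 1 without injured TG TAM library 1 or any single contralateral TG TAM library. It was also 1, Slc22a8, without both contralateral TG TAM libraries whose Ihh was not below the Ihh-intact range. With a replicate block it was 2, Slc22a30 being lost (edgeR adjusted p = 0.05179) and Slc22a6 standing at an edgeR adjusted p = 0.04966.

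**Figure D3:**
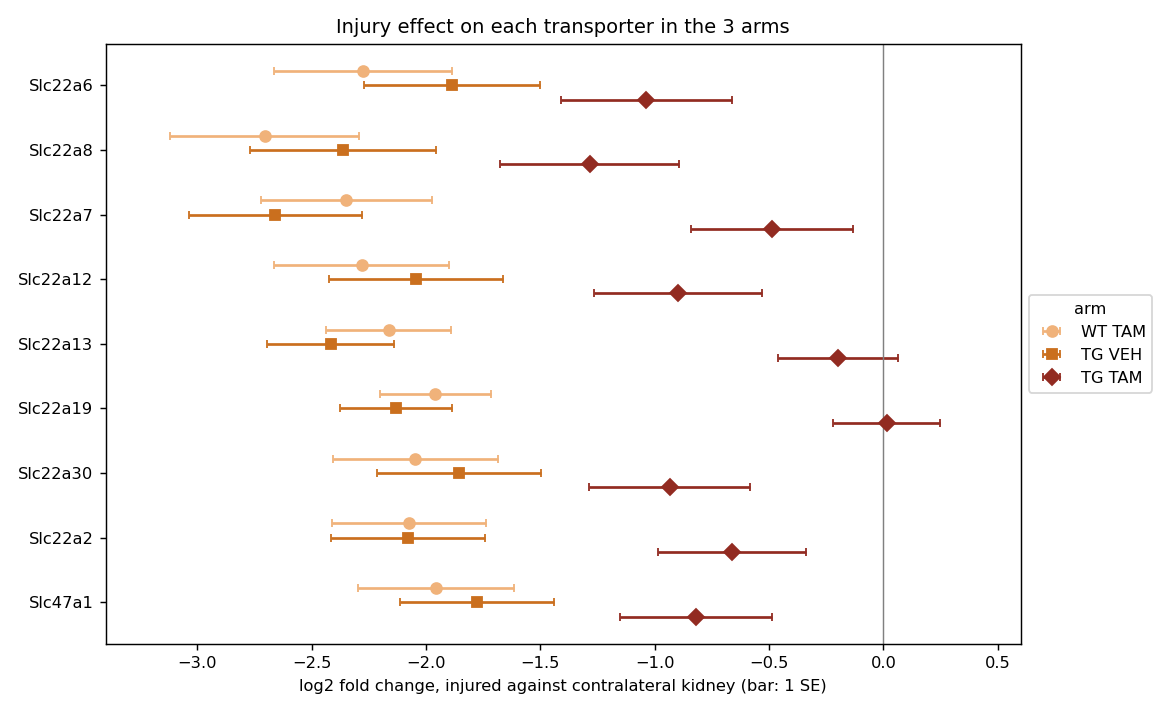
Fitted log2 fold change of each transporter, injured against contralateral kidney, in the WT TAM, TG VEH and TG TAM arms (4 against 4 libraries each), with bars of 1 SE. Values of the Ihh-intact arms lie between -1.78 and -2.71, and those of TG TAM between -1.29 and 0.01.

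The injury effect itself differed between TG TAM and the Ihh-intact arms for 4 of the 9 genes: Slc22a7, Slc22a13, Slc22a19 and Slc22a2. Tested as an interaction, with the effect in TG TAM minus the mean effect of WT TAM and TG VEH, Slc22a13 differed by 2.09 (SE 0.33, edgeR adjusted p = 0.001813) and Slc22a19 by 2.06 (SE 0.29, edgeR adjusted p = 0.001081). Slc22a7 differed by 2.02 (SE 0.44, edgeR adjusted p = 0.007959) and Slc22a2 by 1.42 (SE 0.40, edgeR adjusted p = 0.02256). Of all genes tested, 10.4% passed in this direction. Of the 25 proximal reference genes, 9 passed as well, with a median of 1.05 against 1.26 for the 9 transporters. The other 5 had differences of 1.02 to 1.26 that did not pass, with edgeR adjusted p from 0.05474 for Slc22a12 to 0.1081 for Slc22a6. Without both contralateral TG TAM libraries whose Ihh was not below the Ihh-intact range, 2 of 9 passed: Slc22a13 at 1.95 (edgeR adjusted p = 0.03254) and Slc22a19 at 2.19 (edgeR adjusted p = 0.02476). Slc22a7 then had 1.91 (edgeR adjusted p = 0.07098) and Slc22a2 1.42 (edgeR adjusted p = 0.1079). The count ran from 3 to 9 over single libraries left out: Slc22a2 was lost without injured TG TAM library 2 or 3, all 9 passed without injured TG TAM library 4, and 7 passed without injured WT TAM library 4 or injured TG VEH library 3.

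Slc22a13 is described first. Its injured libraries stood at 13, 13.7, 35.6 and 25.6 CPM in WT TAM and at 17.9, 22.2, 24.1 and 10.1 CPM in TG VEH, and at 97.4, 59.7, 62.7 and 70.3 CPM in TG TAM. The contralateral TG TAM libraries stood at 78.2, 57.6, 79.3 and 75.4 CPM. Injured TG TAM kidneys thus overlapped their own contralateral group and lay above every injured kidney of the other arms.

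Slc22a19, an apical carrier of steroid sulfates in rodents, stood at 11.8, 14.5, 20.1 and 23.7 CPM in injured WT TAM and at 21, 23, 17.1 and 8.59 CPM in injured TG VEH libraries. Injured TG TAM libraries stood at 65.3, 50.2, 49.9 and 59.2 CPM, next to 43.9, 55.9, 43.1 and 52 CPM in their contralateral group. Here too every injured TG TAM library was above every other injured library.

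Slc22a7 (OAT2) stood at 12.5, 17, 25.1 and 41.3 CPM in injured WT TAM, at 11.7, 21.9, 34.1 and 11.3 CPM in injured TG VEH and at 75.8, 63.5, 77.5 and 99 CPM in injured TG TAM libraries. Contralateral TG TAM libraries stood at 80.8, 93, 122 and 89.5 CPM. Slc22a2, the basolateral cation carrier, stood at 52.1, 41, 115 and 121 CPM, at 118, 74.8, 113 and 37.2 CPM, and at 176, 207, 225 and 137 CPM in the same 3 injured groups. Both genes were separated between TG TAM and the 8 Ihh-intact injured libraries, but for Slc22a2 the injured TG TAM libraries stayed below their contralateral group, which ran from 248 to 274 CPM.

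In the injured kidneys compared directly, TG TAM was higher than the Ihh-intact arms for 9 of 9 transporters (4 against 8 libraries; 20.5% of all genes were higher). Slc22a7 was higher by 2.07 on the log2 scale (edgeR adjusted p = 7.26e-05), Slc22a13 by 2.06 (edgeR adjusted p = 2.81e-06) and Slc22a19 by 1.90 (edgeR adjusted p = 2.621e-06), and groups did not overlap for these 3 and Slc22a2. The smallest difference was that of Slc22a6, 1.01 (edgeR adjusted p = 0.01408), which was lost without injured TG TAM library 2 (edgeR adjusted p = 0.05089) or 3 (edgeR adjusted p = 0.1541). In the same comparison 24 of 25 proximal reference genes were higher, fibroblast and mural genes were lower (7 of 7, median -1.35; 16.7% of all genes were lower), and so were 7 of 8 macrophage and dendritic genes (median -1.43), while 0 of 6 B and plasma cell genes passed. Also higher were 4 of 5 thick ascending limb genes (median 0.57), 3 of 5 distal convoluted tubule genes (0.92, with 1 lower) and 3 of 6 principal cell genes (0.73), and also lower were 4 of 4 podocyte genes (-0.70), 3 of 6 endothelial genes (-0.44) and 3 of 7 T and NK cell genes (-1.28). Share of counts from the proximal reference list was 2.17% to 4.12% in injured TG TAM and 0.745% to 2.68% in injured Ihh-intact libraries.

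Against each control arm alone, which share the 4 injured TG TAM libraries, 9 of 9 were higher than in WT TAM (20.6% of all genes) and 7 of 9 than in TG VEH (9.07%). Slc22a6 at 0.74 (edgeR adjusted p = 0.1618) and Slc22a12 at 1.02 (edgeR adjusted p = 0.05758) did not pass against TG VEH. That count fell to 3 without injured TG TAM library 3 or injured TG VEH library 4, and to 4 without injured TG TAM library 2 or injured TG VEH library 2.

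Injured WT TAM and TG VEH kidneys gave 0 of 9 calls between them (2.23% of all genes), with values from -0.54 for Slc22a6 to 0.22 for Slc22a7. Contralateral kidneys of TG TAM and of the Ihh-intact arms gave 0 of 9 (0.00568% of all genes), with values from -0.16 to 0.18. For both, edgeR's quasi-likelihood test gave 0 of 9 at an unadjusted p under 0.05 and DESeq2 gave 0 of 9 adjusted calls.

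Because proximal tubule RNA as a whole moved, the fit was repeated with each library scaled to the 25 proximal reference genes. On that scale the median of all genes moves to 1.8 in injured against contralateral kidneys, so values are read relative to the reference genes, and 93.9% of all genes are then higher and 0.711% lower. Slc22a8 was lower, at -0.61 (SE 0.13, edgeR adjusted p = 4.755e-05), Slc22a6 at -0.24 (SE 0.09, edgeR adjusted p = 0.01411) and Slc22a12 at -0.24 (SE 0.10, edgeR adjusted p = 0.0277). The remaining 6 did not pass, with values of -0.24 for Slc22a7, -0.12 for Slc22a30, -0.08 for Slc22a2, 0.00 for Slc22a13 and Slc47a1 and 0.26 for Slc22a19. Only the lower value of Slc22a8 passed under both other proximal scalings as well, at -0.85 relative to Lrp2 and Cubn alone and -0.45 relative to the 12 single-cell proximal markers. Slc22a6 and Slc22a12 had -0.08 and -0.07 under the marker list and did not pass there.

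The difference of the injury effect between TG TAM and the Ihh-intact arms passed on the proximal scale for 3 of the 4 genes that passed before, all organic anion carriers, while the median of all genes moved to -1.2. Slc22a13 differed by 1.10 (SE 0.28, edgeR adjusted p = 0.008971), Slc22a7 by 1.05 (SE 0.36, edgeR adjusted p = 0.01774) and Slc22a19 by 1.01 (SE 0.31, edgeR adjusted p = 0.01066), where 0.438% of all genes were higher. Values for Slc22a6, Slc22a30 and Slc47a1 were -0.07, -0.07 and -0.02, for Slc22a8 0.12, for Slc22a12 0.18 and for Slc22a2 0.37 (edgeR adjusted p = 0.09184). Over 24 fits with 1 library left out, Slc22a13 and Slc22a19 passed in 24 and Slc22a7 in 23, the exception being the fit without injured TG TAM library 4 (0.74, edgeR adjusted p = 0.06301). The proximal scale was not run without both contralateral TG TAM libraries 2 and 4. Scaled to the single-cell proximal markers the 3 genes passed at 0.96, 0.90 and 0.87 for Slc22a13, Slc22a7 and Slc22a19. Scaled to Lrp2 and Cubn alone they had 1.46, 1.55 and 1.36 and did not pass (edgeR adjusted p from 0.08478 to 0.09161).

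Within the TG TAM arm on the proximal scale, Slc22a19 was higher in injured than in contralateral kidneys by 0.94 (edgeR adjusted p = 0.004552) and Slc22a13 by 0.74 (edgeR adjusted p = 0.00937), where 60% of all genes were higher. Slc22a8 was lower, at -0.53 (edgeR adjusted p = 0.03755), and 0.449% of all genes were lower. In the TG VEH arm, Slc22a7 had -0.91 (edgeR adjusted p = 0.006001), Slc22a13 -0.67 (edgeR adjusted p = 0.007703) and Slc22a8 -0.66 (edgeR adjusted p = 0.006359) on this scale (0.773% of all genes were lower). In the WT TAM arm Slc22a8 alone passed, with -0.65 (edgeR adjusted p = 0.006879; 0.233% of all genes were lower), next to -0.27 for Slc22a7 and -0.07 for Slc22a13.

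**Figure D4:**
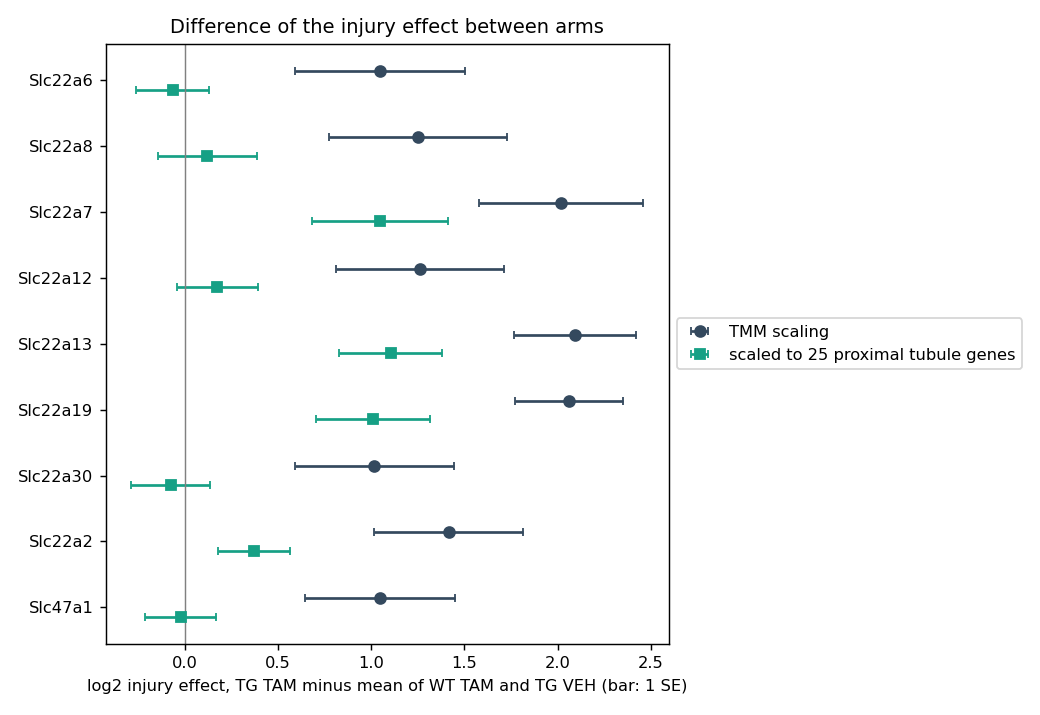
Difference of the injury effect, TG TAM minus the mean of WT TAM and TG VEH, on the log2 scale with bars of 1 SE, for each transporter under library-size (TMM) scaling and under scaling to 25 proximal tubule genes. Slc22a7, Slc22a13 and Slc22a19 lie at 1.01 to 1.10 on the proximal scale, and the other 6 between -0.07 and 0.37.

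Markers of the proximal segments were read in the same libraries, S3 being the last segment and S1 and S2 the first ones. Of 7 S3 marker genes, 5 had a higher injury effect in TG TAM than in the Ihh-intact arms and 1 fell with injury in the TG TAM arm (median -0.52). Of 7 S1 and S2 marker genes, 0 passed the interaction and 6 fell with injury in TG TAM (median -0.99). Over all genes, 10.4% passed the interaction in this direction and 14.6% fell in TG TAM. Interaction medians were 1.41 for the S3 list and 0.77 for the S1 and S2 list. In injured TG TAM against the Ihh-intact arms, 7 of 7 genes of each list were higher (medians 1.59 and 0.90). Over all genes, 20.5% were higher there. No test compared the 2 lists.

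Among kidneys without ischaemia no difference in the 9 genes passed the test. Contralateral against uninjured kidneys gave 0 of 9 calls (0.455% of all genes), with values from -0.46 to 0.35. Nephrectomy against uninjured kidneys gave 0 of 9 (0.176%), from -0.39 to 0.35, and nephrectomy against contralateral WT TAM kidneys 0 of 9 (2.55%), from -0.12 to 0.52. In each of these, edgeR's quasi-likelihood test gave 0 of 9 at an unadjusted p under 0.05, and DESeq2 gave 0 of 9. The comparisons with uninjured kidneys rest on 2 uninjured libraries, 1 of them at 593231 counts. Injured against uninjured kidneys gave 9 of 9 lower (18.4% of all genes), from -1.26 for Slc22a30 to -2.26 for Slc22a8, and 6 of 9 when uninjured library 3 was left out, which keeps only the shallow one.

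The single-cell libraries placed the transporters in proximal tubule cells. Clusters were made without the 9 genes and named from marker lists. Cells with proximal markers made up 911 of 3063 cells (29.7%) in the injured library and 1047 of 1313 (79.7%) in the uninjured one, and leukocytes 39% and 2.74%. With 1 library per condition there is no test between them, and intervals cover counting error only. Proximal cells held 90.4% (Slc47a1) to 100% (Slc22a7, Slc22a13) of each gene's UMIs in the injured library, and 98.4% (Slc22a7) to 100% (Slc22a13, Slc22a19) in the uninjured one. Slc22a13 had only 5 and 4 UMIs in these libraries, and Slc22a19 only 3 in the uninjured one. Of all UMIs, proximal cells held 2355015 of 7758562 in the injured and 3335667 of 4052247 in the uninjured library. Leukocytes of the injured library, which should lack these carriers, had 11.2 CPM of Slc22a6 and 12.2 CPM of Slc22a12, with a UMI in 1.59% and 1.34% of cells at a median depth of 1776 UMIs.

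Within proximal cells, 5 of the 6 genes with over 200 UMIs in each library had the lower CPM in the injured one. The share over all genes is not given here. Of general proximal genes, Slc34a1 was also lower, at 3301 CPM in injured and 3665 CPM in uninjured S1/S2-like cells, and at 2908 and 3020 CPM in S3-like cells. Lrp2 was not, at 658 and 646 CPM, and at 603 and 597 CPM. Slc22a6 stood at 346 CPM (95% exact Poisson interval 322 to 370) in the injured and 408 CPM (386 to 430) in the uninjured library. Slc22a12 stood at 444 (418 to 472) and 478 (455 to 503) CPM, and Slc47a1 at 176 (160 to 194) and 205 (190 to 221) CPM. The widest gap of these 6 was that of Slc22a8, at 171 (155 to 189) and 237 (220 to 254) CPM. Slc22a2 stood at 103 (90.2 to 117) and 132 (120 to 145) CPM, while Slc22a30 was the higher one in the injured library, at 358 (334 to 383) and 326 (307 to 346) CPM. Among cells with at most 20% mitochondrial UMIs, Slc22a12 stood at 473 and 474 CPM and Slc47a1 at 202 and 210 CPM, while Slc22a6 stood at 373 and 425, Slc22a8 at 152 and 212 and Slc22a2 at 121 and 163 CPM in the injured and uninjured library.

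A UMI of Slc22a6 was seen in 42.9% of proximal cells of the injured library (median depth 2028 UMIs) and in 49.9% of those of the uninjured one (2503 UMIs). After each cell was thinned to 1000 UMIs, with no cell left out, the shares were 26.3% and 29.5%. For Slc22a8 they were 29.5% and 42.5%, or 13.7% and 20.1% after thinning. Slc22a30 had 40.2% and 44.4%, or 23.9% and 22.6% after thinning.

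Proximal cells fell into S1/S2-like clusters (404 injured and 484 uninjured cells) and S3-like clusters (507 and 563). Slc5a2, the glucose carrier of the first segments, stood at 876 and 81.6 CPM in these classes of the uninjured library, and Slc7a13, an S3 carrier, at 10.8 and 866 CPM. Slc22a6 was 5.62-fold higher in S3-like than in S1/S2-like cells in the uninjured library (95% exact interval 4.78 to 6.64) and 5.81-fold (4.65 to 7.34) in the injured one. Slc22a2 was 3.11-fold (2.46 to 3.97) and 3.9-fold (2.74 to 5.7) higher, and Slc22a12 2.89-fold (2.56 to 3.26) and 2.68-fold (2.3 to 3.12). Slc47a1 was more even, at 1.42-fold (1.21 to 1.67) and 1.13-fold (0.927 to 1.39). Slc22a8 had ratios of 1.1 (0.953 to 1.27) in the uninjured and 0.73 (0.597 to 0.892) in the injured library, where it stood at 148 CPM in S3-like and 203 CPM in S1/S2-like cells.

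Of the 3 genes whose bulk injury effect differed between arms on the proximal scale, Slc22a7 and Slc22a13 had UMIs in S3-like cells and none in S1/S2-like cells of either library, and so did Slc22a19 in the uninjured library, the one that lists it. Slc22a7 had 63 UMIs (34.1 CPM) in 563 S3-like cells of the uninjured library and 24 UMIs (17.4 CPM) in 507 of the injured one, and 0 in 484 and 404 S1/S2-like cells. Slc22a13 had 4 and 5 UMIs, and Slc22a19 3 UMIs in the uninjured library, too few to place these 2 genes. The S3-like cluster led by Azgp1, Slco1a1 and Slc7a13 held most Slc22a7, at 58.6 CPM in the uninjured and 49.9 CPM in the injured library. Slc22a6 also lay mostly in S3-like cells, with 1190 of its 1370 UMIs (86.9%) there and 170 in S1/S2-like cells of the uninjured library. Its bulk difference between arms was -0.07 on the proximal scale. The part of S3 content in the bulk differences was not tested.

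Slc22a30 varied widely between proximal clusters. It stood at 67.8 CPM in an S1/S2-like cluster with a median of 32.4% mitochondrial UMIs and at 972 CPM in an S3-like cluster with 15.8%, both in the uninjured library. The other S1/S2-like cluster, with 14.3% mitochondrial UMIs, had 423 CPM. Among cells with at most 20% mitochondrial UMIs, Slc22a30 stood at 502 CPM in both libraries. Its level moves with mitochondrial content, whose part in these values was not tested.

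**Figure D5:**
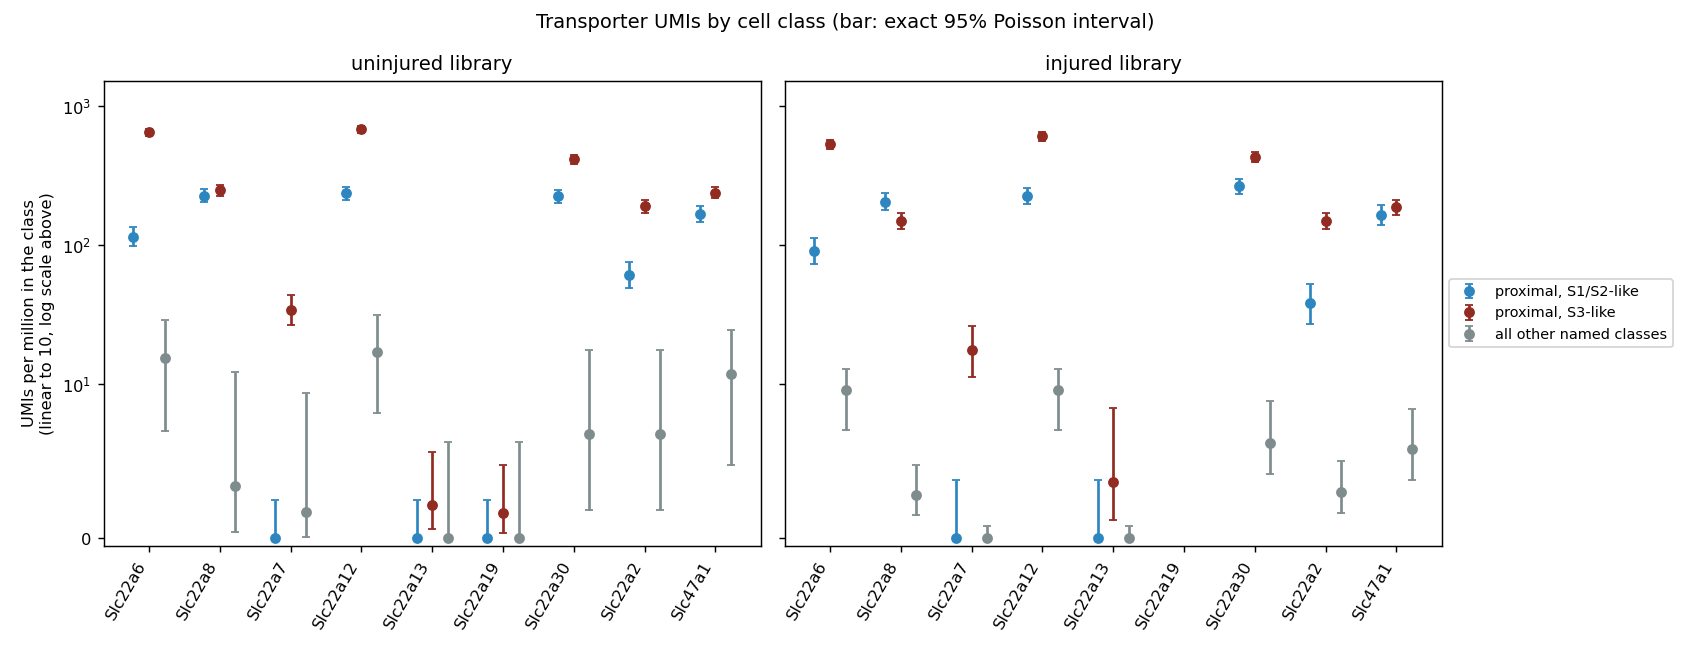
UMI level of each transporter, in CPM, in S1/S2-like proximal cells, S3-like proximal cells and all other named cell classes, in the uninjured and the injured single-cell library, with exact 95% Poisson intervals and an axis that is linear to 10 and logarithmic above. Slc22a6 is at 643 CPM in S3-like and 114 CPM in S1/S2-like cells of the uninjured library, Slc22a7 has UMIs in S3-like and none in S1/S2-like cells, and the other named classes together reach at most 16.9 CPM.

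Other carriers and their partners fell with injury too. Of 17 other Slc22 and Slc47 genes, 15 were tested in injured against contralateral kidneys, 10 fell and 1 rose, with a median of -1.34. Slc22a27 fell by 2.67, Slc22a29 by 2.29 and Slc22a18 by 1.84, while Slc22a15 rose by 1.76. In the interaction, Slc22a26 (2.07) and Slc22a18 (1.28) had a higher effect in TG TAM and Slc22a21 (-1.01) a lower one, where 5.74% of all genes were lower. Of 23 other organic anion and drug transporters, 16 fell and 3 rose. Slco1a6 fell by 1.65, and Slc17a3 and Slc17a1, apical anion carriers, by 1.60 and 1.56. Abcc3, an efflux pump, rose by 2.46.

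A list of 10 other ion-coupled carriers (dicarboxylate, monocarboxylate and sulfate carriers and the proton exchanger Slc9a3) fell in 10 of 10 cases. Slc13a3, which brings dicarboxylates in across the basolateral face and so supplies what OAT1 and OAT3 exchange, fell by 2.02. The sulfate carrier Slc26a1 fell by 1.67, the apical dicarboxylate carrier Slc13a2 by 1.60 and the monocarboxylate carrier Slc5a12 by 1.59. In the interaction 2 of these 10 were higher in TG TAM. Among 15 scaffold and regulator genes 11 fell and 1 rose: Pdzk1, the PDZ scaffold that holds apical carriers, by 1.65, Pdzk1ip1 by 1.45, Hnf4a by 1.43 and Ppara by 1.34, with Cux2 the one that rose (0.71). In the interaction 7 of the 15 were higher in TG TAM, among them Prlr, the prolactin receptor (1.98), Pdzk1 (1.46) and Hnf4a (1.14).

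Tubular injury genes went the other way: 12 of 12 rose over the 3 arms, with Krt20 at 4.21, Lcn2 at 3.95, Krt19 at 3.52 and Cd44 at 3.50. All 12 rose within the TG TAM arm as well, where 19.3% of all genes did, and 0 of 12 passed the interaction. In injured TG TAM against the Ihh-intact arms, 2 of the 12 were lower and 0 higher (median -0.46). Over all genes, 16.7% were lower there. Of 6 sex-linked genes 4 were tested, and Ddx3y alone passed over the 3 arms, at 0.16.

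The genes most like each transporter over the 29 libraries, by Pearson correlation of log2 CPM among 13278 genes, were given as a description, since libraries share groups and composition. Slc22a6 was most like Aldh3a2, Car4 and Slc34a1 (0.992 each), and Slc22a8 most like Slc13a3 (0.988), Acad11 (0.987) and Sardh (0.986). Slc22a12 was nearest to Aldh8a1 (0.995), Ggt1 (0.993) and Dao (0.992), and Slc22a2 to Ugt3a2 (0.995), Slc17a1 (0.995) and Aldh8a1 (0.994). Slc47a1 was nearest to Tmem229a (0.995), Macrod2 (0.995) and Mfsd4b1 (0.994), and Slc22a30 to Hykk (0.992), Tmem229a (0.991) and Mfsd4b5 (0.99). The 3 genes with the different injury effect had lower best matches and other ones: Slc22a13 with Mettl7a2 (0.986), Uroc1 (0.971) and Slc23a1 (0.97), Slc22a19 with A4gnt (0.961), Neurog2 (0.961) and Napsa (0.96), and Slc22a7 with Pdk3 (0.95), Mpv17l (0.948) and Cyp51 (0.946).

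Among the 12 injured libraries, Slc22a13 and Slc22a19 had a correlation of 0.971, Slc22a13 and Slc22a7 one of 0.945, and Slc22a2 and Slc47a1 one of 0.992. Slc22a6 was less close to Slc22a13 (0.711) and Slc22a7 (0.689) there. Group means were not removed, and Slc22a7, Slc22a13 and Slc22a19 were singled out by their injured TG TAM levels. Their closeness in these libraries therefore follows in part from that choice. In the 12 contralateral libraries correlations ran from -0.588 for Slc22a8 and Slc22a19 to 0.909 for Slc22a6 and Slc22a2. Slc22a8 had at most 0.429 with any other member (Slc22a30), Slc22a30 had 0.107 with Slc22a6 and 0.703 with Slc47a1, and Slc22a13 had 0.026 with Slc22a19.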

How the data were processed

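Bulk RNA of 8 mouse kidney groups and 2 single-cell libraries were analysed. Bulk values are expected counts, 1 per transcript and library, estimated by the authors with Salmon 1.4 against GRCm38 (mm10), per the submitters' processing notes, which name no index or options. Single-cell values are UMI counts of 10x 3' V2 libraries, per the labels' protocols, with Cell Ranger and STAR in the processing notes. The bulk samples carry the same protocol text, cell digestion and sorting included.

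GENCODE M21 named 105203 of the 105833 transcripts, and the 630 without a match (0.2133% of counts) were dropped before sums per gene were taken (33644 genes) and rounded. edgeR 4.0.16 (R 4.3.3) was run on the 29 libraries with a kidney profile, using TMM, filterByExpr, a term for each group and the quasi-likelihood F test, with Benjamini-Hochberg adjustment over 17591 genes and a threshold of 0.05. Fold changes and their SEs come from that fit, and CPM uses library totals. The test was checked on simulated counts for injured against contralateral kidneys, with 50 of 17591 genes changed at each fold. It recovered 84% of those changed 1.5-fold and 100% of those changed 2-, 3- or 4-fold, with 9 false calls. In the data 73.7% of genes were called, so the simulation does not cover changes that broad. The tests within arms and the interaction were not simulated. For proximal scaling, each library's offset was shifted by its mean log2 CPM (prior count 2) over 25 reference genes. TPM used annotated transcript lengths.

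The 4376 deposited barcodes, with 1004 UMIs or more each, were all kept, and 8 barcodes occur in both libraries. Cells were clustered with scanpy 1.11.5 on 2000 variable genes, leaving out the 9 transporters and mitochondrial genes (30 components, 15 neighbours, resolution 1.0, 19 clusters), and clusters were named from marker lists, so names may differ from the authors'. No doublet caller was run. Clusters led by Fst, Bst1 and Cryab, by Xcr1, Ifi205 and Naaa, and by Cldn5 and Aqp1 stayed unnamed (215 injured and 49 uninjured cells).

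The 9 genes and all lists were chosen with earlier results of these data known. All 9 were named wherever measured, and from each other list the 2 to 4 genes with the largest fold change among those past the threshold in injured against contralateral kidneys. Genes named in the interaction beyond these were picked after their values were seen. Alternatives were RLE factors, no low-count filter, DESeq2 1.42.0, all 32 libraries, the 24 libraries of the injury arms, a replicate block, each library left out, contralateral TG TAM libraries 2 and 4 left out together, other proximal scalings, and other single-cell filters and resolutions. Some items are not reported here.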

Additional observations from a re-analysis of the deposited data

Results flagged for a closer look

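The injury effect in the TG TAM arm differed from that in the Ihh-intact arms, by the interaction test, for Slc22a7 (2.02 on the log2 scale), Slc22a13 (2.09), Slc22a19 (2.06) and Slc22a2 (1.42). It also differed for 9 of the 25 proximal reference genes. Injured TG TAM libraries were above all 8 injured Ihh-intact libraries for each of these 4 genes. Without contralateral TG TAM libraries 2 and 4, the difference passed for Slc22a13 and Slc22a19 and not for Slc22a7 and Slc22a2.

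Over 54 groups of 4 libraries, 2 held a library far from the others, and chance gives this in about 5% of groups. Slc22a19 stood at 63.8 CPM in contralateral TG VEH library 1, against 52.5 to 53.8 CPM in the other 3. Slc22a2 stood at 334 CPM in contralateral TG VEH library 2, against 235 to 249 CPM in the other 3. The latter library also had the highest total, 37975751 counts.

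Slc47a1 RNA was present in the 3 libraries that were left out for their heart profile, at 53.4 CPM in uninjured library 1, 57.6 CPM in uninjured library 4 and 55.1 CPM in nephrectomy library 3. The other 8 transporters stood at 1.8 CPM or less there.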

How the results depend on the processing

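With all 32 libraries, the 3 heart-profile ones included, fewer of the 9 transporters passed: 5 in injured against contralateral kidneys, 1 in the WT TAM arm, 1 in the TG VEH arm, 0 in the TG TAM arm, 0 in the interaction, and 0 in injured TG TAM against the Ihh-intact arms, against WT TAM, against TG VEH and in injured against uninjured kidneys. In the TG TAM arm, DESeq2 called 5 and the 24 libraries of the injury arms 1, where 3 were reported. With 1 library left out, 0 to 5 passed in the TG TAM arm, 3 to 9 in the interaction and 3 to 9 in injured TG TAM against TG VEH. Calls over all genes moved by over 1.5 times in several comparisons: the interaction went from 2834 to between 854 and 4842 with 1 library left out and to 167 with all 32 (1751 with the replicate block), TG TAM against TG VEH from 2881 to between 180 and 5108 and to 0, the TG TAM arm from 5953 to between 3277 and 7018 and to 2360, TG TAM against both intact arms from 6539 to between 3534 and 7584 and to 1657, and against WT TAM from 6797 to 2082 with all 32. The WT TAM arm went from 10677 to 7031 with all 32. Injured against uninjured kidneys went from 6723 to between 1296 and 7113, injured WT TAM against TG VEH from 392 to between 156 and 578 (DESeq2 664, all 32 libraries 56), nephrectomy against contralateral WT TAM from 449 to between 156 and 398 (DESeq2 843), contralateral against uninjured from 80 to between 15 and 266 (all 32 libraries 6002), nephrectomy against uninjured from 31 to between 2 and 76 (DESeq2 113, all 32 libraries 54) and contralateral TG TAM against intact arms from 1 to between 0 and 39 (DESeq2 87, RLE factors 7, all 32 or 24 libraries 0).

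Whether column numbers pair the samples was not settled, and the main fit used no pairing. Over 12 pairs of same-numbered injured and contralateral columns the correlation ran from -0.2066 to 0.1832. The replicate block changed no count of the 9 by over 1.5 times (9 in injured against contralateral kidneys, 4 in the interaction and 2 in the TG TAM arm with the block, where Slc22a30 had an edgeR adjusted p = 0.05179). The own number was the best match in 5 of 12 pairs. Of 2367 values of single transporters, 2223 kept their side of the threshold, 115 lost it, 29 gained it and 0 reversed, while 78 of those below the threshold in both changed sign. Relative to proximal genes, 4 of 9 passed with Lrp2 and Cubn and 2 of 9 with the single-cell markers, where 3 were reported. Without contralateral TG TAM libraries 2 and 4, 2 passed in the interaction (119 of all genes) and 1 in the TG TAM arm (2884 of all genes). This setting and the leave-out and other scalings of the proximal-scale interaction were added after the data were seen.

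Single-cell levels moved beyond their counting interval in 11 of 17 cases among cells of at most 20% mitochondrial UMIs and in 7 of 17 at double the clustering resolution, and in 0 of 17 at the lower resolution or without the 274 cells with markers of several classes. The 3 genes most like a transporter changed in 9 of 9 cases under Spearman correlation and in 5 of 9 over 24 libraries. Protein identity between the genes was not run. Slc22a13 and Slc22a19, with 5 or fewer UMIs, could not be followed in single cells at this depth.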

Other observations

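Slc22a30 was the transporter whose contralateral levels did not overlap between the Ihh-intact arms, at 337 to 387 CPM in TG VEH and 421 to 487 CPM in WT TAM libraries (4 each), a difference that was not tested. Contralateral TG TAM libraries ran from 382 to 518 CPM and the uninjured ones stood at 339 and 345 CPM. Its transcript ENSMUST00000096269 held 37% to 47% of the gene's counts in contralateral WT TAM and 39.4% to 70.8% in contralateral TG VEH libraries.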
